A study of Mus musculus with 60 samples.

Results

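The Nat8 family of mice holds genes for small membrane-bound N-acetyltransferases: Nat8, a set of close copies named Nat8f1 to Nat8f7 that lie beside it on chromosome 6, and the more distant Nat8l. Members were taken by symbol from the gene tables of 5 organs, and 9 of the 10 names sought were found among 55290 named genes. The name Nat8b was not a row of those tables; RefSeq gives it as an older symbol of the pseudogene Nat8b-ps, whose values are given beside the family and not counted in it. The family was chosen by its fold changes between the genotypes in kidney and liver, which were already known. Those values are therefore a description, with no test added here.

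Organs came from 6 male mice aged 4 months, 3 Ftsj1-deficient (labelled Ftsj1_DF) and 3 wildtype (labelled WT). Ftsj1, on the X chromosome, encodes an enzyme that adds a methyl group to ribose at anticodon-loop positions of certain tRNAs, and the study asks how its loss alters coding and non-coding RNA in each organ. The mice were brothers from 2 litters, 1 of 2 mice and 1 of 4, and each litter held both genotypes. The allele and the genetic background were not given in the labels. All mice were fed freely and untreated, and every library carries the same batch label. Whole brain, heart, kidney, liver and spleen each gave a poly-A library per mouse, made from messenger RNA above all, and an rRNA-depleted library of total RNA.

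The best known reaction of the family is the last step of mercapturic acid formation. Foreign or reactive compounds are first joined to glutathione by glutathione S-transferases, the conjugate is trimmed to a cysteine conjugate by γ-glutamyltransferase and dipeptidases, and Nat8 on the endoplasmic reticulum acetylates the cysteine so that the product can leave in urine. Nat8 is known from the proximal tubule of the kidney and from the liver. Nat8 and its near copies have also been described as lysine acetyltransferases of proteins passing through the endoplasmic reticulum. Nat8l has another substrate: it acetylates aspartate to N-acetylaspartate, a metabolite made in large amounts by neurons.

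The deposited tables give, for each organ, the mean level over 6 libraries, the log2 fold change of Ftsj1-deficient minus wildtype with its standard error (SE), and DESeq2's p and adjusted p. They give no value per mouse, so the spread among mice is seen only through the SE, levels have no error of their own, and the depth of a library is unknown. Below, a gene rose or fell when its adjusted p was under 0.05. Ftsj1, the targeted gene, stood in the deficient mice at 8.79% to 15.4% of the wildtype level in the 5 organs. Genotype levels quoted below are implied values, worked out from the mean level and the fold change with 3 mice on each side. Organs are whole tissue, in which fewer cells of a type and less RNA per cell cannot be told apart.

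The cluster on chromosome 6 was above all a kidney and liver cluster. Together its 8 genes took 1285 parts per 1000000 (ppm) of the summed level in liver, 517 in kidney, 27.8 in brain, 13.0 in spleen and 3.43 in heart. The liver value rested on 1 gene, Nat8f2. In ppm per kilobase of exon, the scale used to compare genes, Nat8f2 stood at 343 in liver and 21.3 in kidney, and at no more than 0.150 in the other organs. It supplied 75.8% of the family's level per kilobase in liver.

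In kidney the family was shared more evenly. Nat8f1 stood at 123 ppm per kilobase, Nat8 at 112 and Nat8f6 at 51.8, and these made up 36.7%, 33.3% and 15.4% of the family's level per kilobase there. Nat8f7 and Nat8f3 stood lower, at 12.9 and 10.5. Of the level in ppm summed over the 5 organs, kidney held 94.9% for Nat8f6, 85.8% for Nat8f7, 84.9% for Nat8f3 and 82.1% for Nat8, so these 4 were kidney genes in these libraries. Nat8f1 was divided between kidney (58.4%) and liver (38.2%).

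Liver held very little of the same kidney genes, apart from Nat8. In ppm per kilobase, Nat8 stood there at 22.7, Nat8f6 at 1.22, Nat8f7 at 0.780 and Nat8f3 at 0.115. Of the members, Nat8f3 had the widest gap between these organs, with a liver level in ppm of 0.0110 times that in kidney. Scaled to 6 reference genes in place of the summed level, that ratio was 0.0168, and the ratio of Nat8f1 went from 0.654 to 1.00, so that its order of kidney and liver depends on the scale. By ppm, the order of organs for Nat8f3 was kidney, brain, spleen, heart, liver, while that of Nat8 and Nat8f1 was kidney, liver, brain, spleen, heart.

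Nat8f4 was spread over the organs, with 4.47 ppm per kilobase in liver, 4.24 in brain, 3.55 in kidney, 1.91 in spleen and 0.396 in heart. The first 3 lie close together, and with no spread for levels their order cannot be read. Nat8f5 was at or under 0.0198 in every organ and is close to unmeasured. Nat8l, the aspartate enzyme gene, stood at 72.1 in brain, 1.00 in spleen, 0.661 in heart, 0.581 in kidney and 0.0182 in liver, so that brain held 97.0% of its level in ppm over the 5 organs.

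Outside kidney and liver the cluster was faint, and Nat8f4 led it together with Nat8f1. In brain, in ppm per kilobase, Nat8f1 stood at 3.92, Nat8f6 at 1.21, Nat8 at 1.15, Nat8f3 at 1.12 and Nat8f7 at 0.817. In spleen the same 5 genes stood at 2.76, 0.241, 0.488, 0.452 and 0.356, and in heart at 0.628, 0.101, 0.0245, 0.169 and 0.193. Nat8f6 and Nat8f7 thus kept a low level in brain as well, near their level in liver. Nat8f2 was lowest in spleen, at 0.0320. Ranked among all 35330 genes with a level in kidney, without regard to length, Nat8f1 was 883rd and Nat8 1290th, and among 32026 in liver Nat8f2 was 110th. Nat8l was 240th among 34270 in brain.

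**Figure D1:**
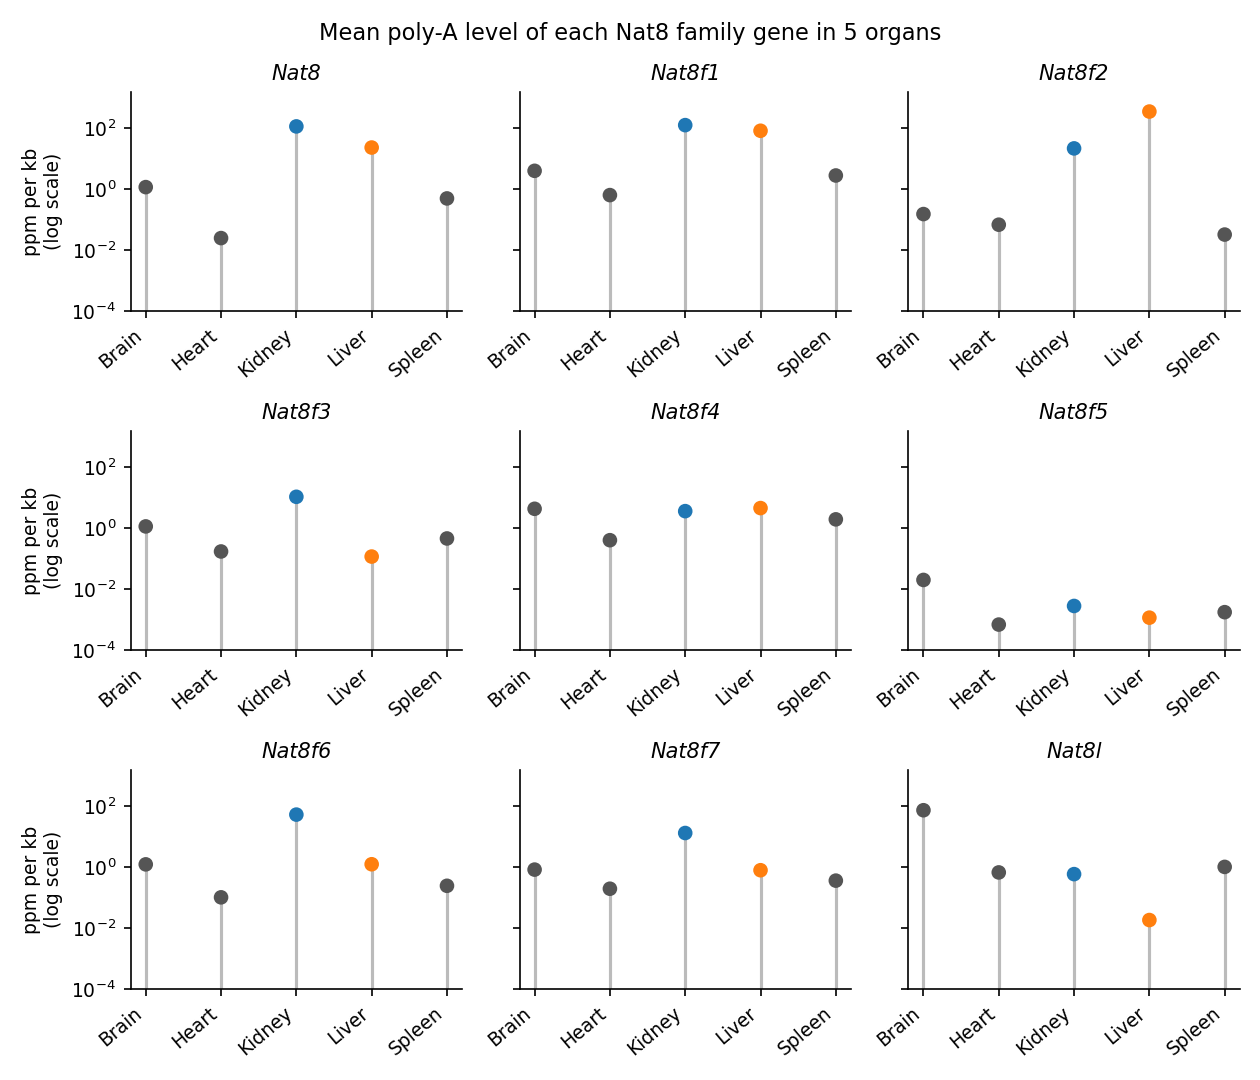
Mean poly-A level of each family gene, in ppm of the organ's summed level per kilobase of exon, on a log axis, for brain, heart, kidney (blue), liver (orange) and spleen; each point is the mean of 6 libraries of both genotypes. Nat8f2 peaked in liver at 343, Nat8l in brain at 72.1, and Nat8, Nat8f1, Nat8f3, Nat8f6 and Nat8f7 in kidney.

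How far these genes can be told apart by short reads differs within the family. In the reference annotation the coding sequences of Nat8f3, Nat8f6 and Nat8f7 were 99.1% to 99.6% identical in pairs. Of all 75-base stretches of the exons, 75.3% of those in Nat8f7, 58.3% of those in Nat8f6 and 48.4% of those in Nat8f3 also occurred in another gene of the family or in Nat8b-ps. The same share was 3.43% for Nat8, 9.42% for Nat8f1, 10.8% for Nat8f2 and 0 for Nat8l. For Nat8 and Nat8f1 every shared stretch occurred in Nat8b-ps. The sources used here do not give how the authors counted reads that match several genes. Values of Nat8f3, Nat8f6 and Nat8f7 as single genes are therefore uncertain, while Nat8 shares few stretches, all of which occur in Nat8b-ps. Whether some of them also occur in Nat8f1 is not given here. Nat8f5 also shares 135 of its 986 exon bases with Nat8f6 on the same strand, and Nat8f1 shares 478 of 1345 with Tprkb on the opposite strand, so that reads there may be counted for either.

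In kidney, Nat8 and Nat8f6 fell in the Ftsj1-deficient mice, and no member rose. That is 2 of 8 members with an adjusted p, where 0.648% of all genes tested fell in kidney; the share is printed for reference only, since this contrast chose the family. The mean level of Nat8 was 42436 normalised counts in the authors' deposited table, implying 51766 in wildtype and 33106 in deficient mice. Its log2 fold change there was -0.64 ± 0.11 (SE, DESeq2 adjusted p = 9.90e-07 in the authors' deposited table), with a 95% interval of -0.85 to -0.44. Nat8f6 matched it closely in size: its mean level was 29729 and its log2 fold change -0.65 ± 0.12 (adjusted p = 7.68e-06) in the authors' deposited table, implying 36334 and 23124 normalised counts. The deficient level was 64.0% of wildtype for Nat8 and 63.6% for Nat8f6.

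The 2 nearest copies of Nat8f6 lay lower in the deficient kidneys as well, without passing the threshold. Nat8f3 had a log2 fold change of -0.39 ± 0.12 (p = 0.00122, adjusted p = 0.0986), and Nat8f7 one of -0.27 ± 0.14 (p = 0.0515, adjusted p = 0.865), in the authors' deposited table. The difference of Nat8f7 minus Nat8f6 in kidney was 0.38 ± 0.18 on the log2 scale and was not tested. Nat8f1, the highest member in kidney per kilobase, stood at 95.2% of wildtype, Nat8f2 at 101% and Nat8f4 at 100.1%. In the authors' deposited table their log2 values were -0.071 ± 0.14, 0.019 ± 0.10 and 0.00082 ± 0.14, with 95% intervals of -0.35 to 0.21, -0.19 to 0.22 and -0.26 to 0.27. These 3 intervals do not reach the fold change of Nat8 or of Nat8f6. Nat8l, low in kidney, had 0.57 ± 0.51 and Nat8b-ps 0.22 ± 0.16 in the authors' deposited table, and neither passed.

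The make-up of the cluster in kidney differed between the genotypes in the implied levels. The 8 cluster genes together stood at 80.0% of wildtype in the deficient mice. Nat8 took 26.7% of the cluster's normalised counts in wildtype and 21.3% in deficient kidneys, and Nat8f6 18.7% and 14.9%. Nat8f1 went from 29.6% to 35.1% with its own level near that of wildtype.

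In liver, Nat8, Nat8f3 and Nat8f7 fell, and again no member rose. That is 3 of 8 members with an adjusted p, where 1.41% of all genes tested fell in liver, given for reference as above. Nat8f7 had the largest difference of the family: its mean level was 340.5 normalised counts and its log2 fold change -3.12 ± 0.35 (adjusted p = 2.21e-15) in the authors' deposited table. That implies 611 in wildtype and 70.3 in deficient livers, an 8.68-fold lower level. Nat8f3 had a mean level of 86.5 and a log2 fold change of -2.00 ± 0.41 (adjusted p = 2.57e-04) in the authors' deposited table, which implies 138 against 34.6. Both genes are scarce in liver, at 1.42 and 0.361 ppm.

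Nat8 was the only one of the 3 at a substantial level in liver. Its mean level was 6111 normalised counts, with a log2 fold change of -0.85 ± 0.18 (adjusted p = 4.51e-04) in the authors' deposited table, or 55.3% of wildtype. Nat8f6 stood at 41.4% of wildtype with a wide error, -1.27 ± 0.67 on the log2 scale (p = 0.0589, adjusted p = 0.491 in the authors' deposited table). The leading gene of the liver, Nat8f2, had -0.12 ± 0.16, Nat8f1 0.19 ± 0.16 and Nat8f4 -0.023 ± 0.17 in the authors' deposited table, and none of these passed. With Nat8f2 taking 88.4% of the cluster's normalised counts in wildtype and 87.9% in deficient livers, the cluster as a whole stood at 92.3% of wildtype. Nat8l (0.20 ± 0.52) and Nat8b-ps (0.23 ± 0.22) did not pass in the authors' deposited table.

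Markers of the main cell types of both organs were read beside these values. Kap, an androgen-responsive gene of the proximal tubule and one of its most abundant transcripts, stood at 15837 ppm in kidney and 0.0255 in liver. In liver, where 0.887% of all genes tested rose, 1 of the 14 proximal tubule markers tested rose and 0 fell. The 1 that rose was Gatm (0.60 ± 0.18 at 15.3 ppm, adjusted p = 0.0400 in the authors' deposited table). The median log2 fold change of the 14 was 0.086, with a range of -1.67 to 0.60. The whole list summed to 3959 ppm in liver, and some of its genes have a level of their own there, such as Cyp7b1 at 141 ppm. Count and median are therefore not a measure of tubule RNA in liver. Of all 25 tubule markers listed, with or without an adjusted p, 5 had an unadjusted p under 0.05 in the authors' DESeq2 result. Among them Lrp2, the gene of the endocytic receptor megalin, had -1.08 ± 0.35 at 0.900 ppm in liver in the authors' deposited table (p = 0.00224, adjusted p = 0.0783). Slc34a1, the phosphate transporter gene of the tubule, had -2.84 ± 1.39 at 0.0230 ppm (p = 0.0409 in the authors' deposited table); it has no adjusted p in liver and is not among the 14. Lrp2 and Slc34a1 had values below 0 in liver, as Nat8f7 and Nat8f3 did, while Gatm had one above 0. The mean level of Slc34a1 was under the lowest that carries an adjusted p in liver. Kap (-0.76 ± 0.98) and Cyp7b1 (-0.74 ± 0.57) also lay below 0 there, with wide errors, in the authors' deposited table. Slc22a19 (0.60 ± 0.83) lay above 0 in that table, as did the median of the 14. The markers thus had no common direction in liver. The part of these markers in the result was not tested. Of 19 hepatocyte markers tested in liver, among them albumin (Alb), 0 passed in the authors' DESeq2 result, 4 had an unadjusted p under 0.05, and their median log2 fold change was -0.12. In kidney, where 0.339% of all genes tested rose, 3 of 24 proximal tubule markers rose and 0 fell in the authors' DESeq2 result. Of these markers 7 had an unadjusted DESeq2 p under 0.05, with a median of 0.0063 and a range of -1.55 to 0.66 for the 24. The 3 that rose were the transporter gene Slc22a19 (0.66 ± 0.10), Cyp7b1 (0.45 ± 0.12), which encodes a steroid and oxysterol hydroxylase, and Gatm (0.46 ± 0.10), the first enzyme of creatine synthesis, all from the authors' deposited table. Of 15 markers of other nephron segments 0 passed in the authors' DESeq2 result, with 2 at an unadjusted p under 0.05 and a median of 0.10. The part of these cell types in the kidney values of Nat8 and Nat8f6 was not tested.

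**Figure D2:**
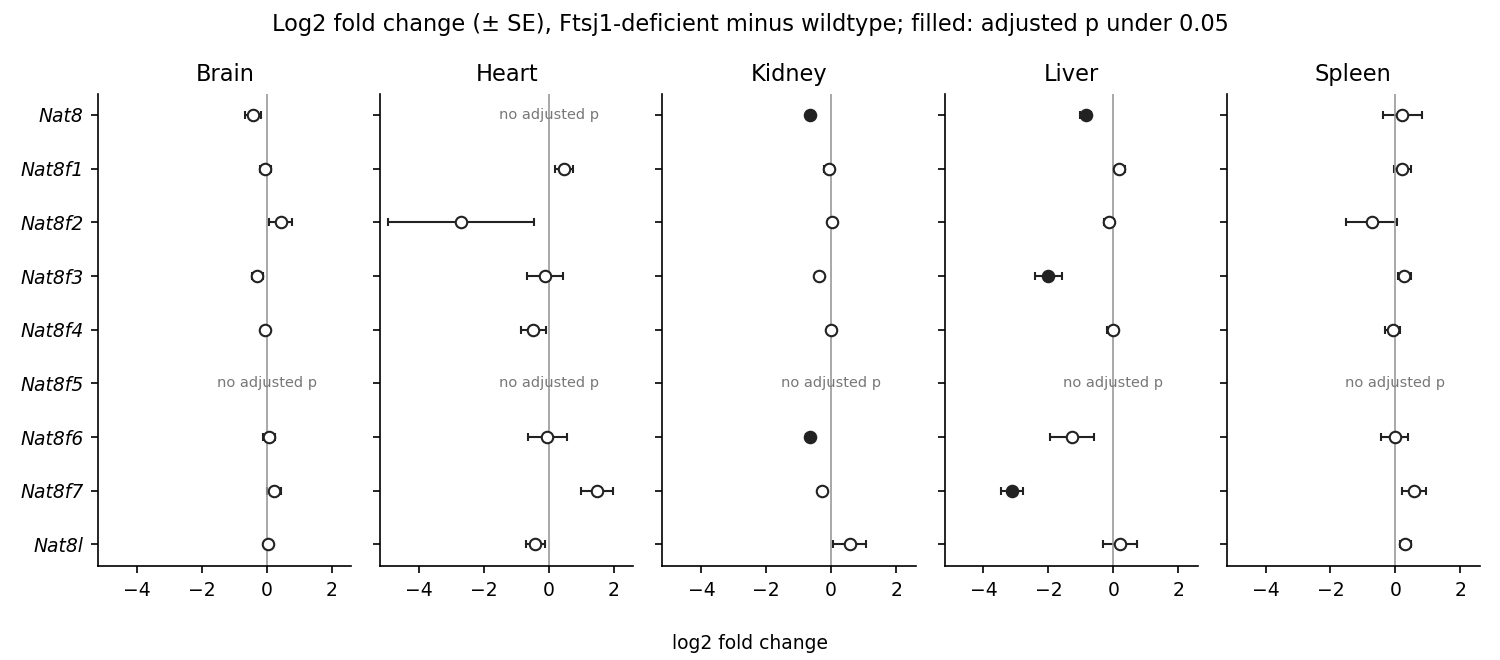
Log2 fold changes (Ftsj1-deficient minus wildtype) of the 9 family genes, in 1 panel per organ; bars are the SE of the authors' deposited tables from 3 mice against 3, and filled points had an adjusted p under 0.05. Filled points appear in kidney (Nat8 and Nat8f6) and liver (Nat8, Nat8f3 and Nat8f7), all to the left of 0.

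No member passed in brain, heart or spleen. In the authors' DESeq2 results 0 of 8 members passed in brain, 0 of 7 in heart and 0 of 8 in spleen, and at an unadjusted p under 0.05 there were 0, 1 and 0. Over all genes tested, 0.0607% passed in brain, 0.541% in heart and 0.0741% in spleen. In brain, Nat8 had -0.43 ± 0.24 (p = 0.0708) and Nat8f3 -0.30 ± 0.17 (p = 0.0703), while Nat8f6 had 0.072 ± 0.18 and Nat8f7 0.22 ± 0.22, in the authors' deposited table. Nat8f1 in brain had -0.051 ± 0.17, Nat8f2 0.42 ± 0.34 and Nat8f4 -0.067 ± 0.10 in the authors' deposited table. The 8 cluster genes together stood at 94.8% of wildtype in brain and 106% in spleen, from the implied levels. Nat8l in brain, its main organ, had a log2 fold change of 0.033 ± 0.084 with a 95% interval of -0.13 to 0.20; its mean level there was 108575 normalised counts in the authors' deposited table, and it is the most precisely measured member of any organ. In spleen the values of the 8 members with an adjusted p ran from -0.73 for Nat8f2 to 0.58 for Nat8f7, with Nat8l at 0.31 ± 0.18 (p = 0.0850), in the authors' deposited table. The genes that fell in kidney or liver had spleen values of 0.22 ± 0.61 (Nat8), -0.020 ± 0.42 (Nat8f6) and 0.28 ± 0.20 (Nat8f3) in the authors' deposited table, none of them far below 0.

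Heart held the family at very low levels. The member with the smallest p there was Nat8f7, at 278% of wildtype. Its mean level was 49.7 normalised counts with a log2 fold change of 1.48 ± 0.51 (p = 0.00358, adjusted p = 0.219) in the authors' deposited table, which did not pass. Nat8f2 in heart had -2.72 ± 2.25 at a mean level of 31.4 in the authors' deposited table. Hepatocyte markers were read beside that value: 0 of 19 passed in heart in the authors' DESeq2 result, 7 had an unadjusted p under 0.05, and their median log2 fold change was -2.51. None of the 19 was listed at 0 in heart, and their summed level there was 352 ppm. Alb stood at 7.90 ppm of that, Apoa1 at 1.44 and Apob at 1.09. The same list summed to 1931 ppm in brain, so its sum is not a measure of liver RNA. Nat8f2 is a liver gene in these data, and the part of liver RNA in its heart value was not tested. Nat8f1 in heart had 0.46 ± 0.28, Nat8f3 -0.13 ± 0.54, Nat8f4 -0.48 ± 0.37 and Nat8f6 -0.049 ± 0.60 in the authors' deposited table, and Nat8, at 3.89 normalised counts, had no adjusted p. Nat8l in heart had -0.42 ± 0.28 in the authors' deposited table and did not pass.

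Fold changes of a given member can be set side by side between organs. For Nat8, liver minus kidney came to -0.21 ± 0.21 on the log2 scale, about 1 SE. For Nat8f7 the same difference was -2.85 ± 0.38, and for Nat8f3 -1.62 ± 0.43, in each case more than 3 SE. For Nat8f6 it was -0.62 ± 0.68. The difference of Nat8f7 in liver minus heart was -4.59 ± 0.62. Errors here join the SEs of both organs as if independent, although the organs come from the same mice, and the differences were not tested.

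The members that fell in kidney or liver lie side by side, with Nat8f5, close to unmeasured, among them. In the gene order of the reference, from the gene Alms1 onward, the cluster reads Nat8f7, Nat8f3, Nat8f6, Nat8f5, Nat8, Nat8f2, Nat8f4, Nat8f1 and, past Tprkb, the pseudogene Nat8b-ps. The 4 measured genes of the first stretch, Nat8f7 to Nat8, had log2 fold changes below 0 in both kidney and liver, from -0.65 to -0.27 in kidney and from -3.12 to -0.85 in liver in the authors' deposited tables. The 3 genes of the second stretch, Nat8f2, Nat8f4 and Nat8f1, ran from -0.071 to 0.019 in kidney and from -0.12 to 0.19 in liver in the authors' deposited tables. Of the first stretch only Nat8 passed in both organs; Nat8f6 passed in kidney alone, and Nat8f3 and Nat8f7 in liver alone. In kidney the 95% intervals of Nat8f7 (-0.54 to 0.0017) and Nat8f1 (-0.35 to 0.21) overlap. This division was drawn after the values were seen, and 3 of the 4 genes of the first stretch share much of their sequence.

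Among the genes on both sides of the cluster none passed in kidney or liver. Alms1, which encodes a protein of the centrosome and basal body, had -0.047 ± 0.12 in kidney and 0.16 ± 0.18 in liver, and Tprkb, which encodes a binding partner of the p53-related kinase, had -0.086 ± 0.13 and -0.029 ± 0.15, in the authors' deposited tables. Of 30 protein-coding neighbours (15 on each side), 26 were tested in kidney and 22 in liver, and 0 passed in either organ in the authors' DESeq2 results, with 1 and 0 at an unadjusted p under 0.05. Over all genes tested, 0.987% passed in kidney and 2.29% in liver. The only neighbour called in any organ was Egr4, an immediate early transcription factor gene, in brain (-0.44 ± 0.085, adjusted p = 9.28e-04 in the authors' deposited table). It was 1 of 27 neighbours tested in brain, where 0.0607% of all genes tested passed. None of the neighbours of Nat8l passed in any organ in the authors' DESeq2 results (26 to 28 tested, with 0 to 2 per organ at an unadjusted p under 0.05).

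One non-coding transcript inside the cluster differed in kidney. Alms1-ps2, a transcribed pseudogene of Alms1 between Nat8f3 and Nat8f6, is listed among the lncRNAs of the rRNA-depleted libraries, where its mean level in kidney was 5715 normalised counts in the authors' deposited table. It fell there, with a log2 fold change of -0.86 ± 0.23 (adjusted p = 0.0343 in the authors' deposited table), to 55.0% of wildtype; 0.382% of the lncRNAs tested in kidney fell. In the poly-A libraries of kidney the same transcript had a mean level of 446 and a log2 fold change of -0.18 ± 0.26 in the authors' deposited table, which did not pass. It was listed at 13.6 normalised counts in rRNA-depleted liver and had no adjusted p there. It was named after its values were seen. No feature of the lncRNA tables carries Nat8 in its name.

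**Figure D3:**
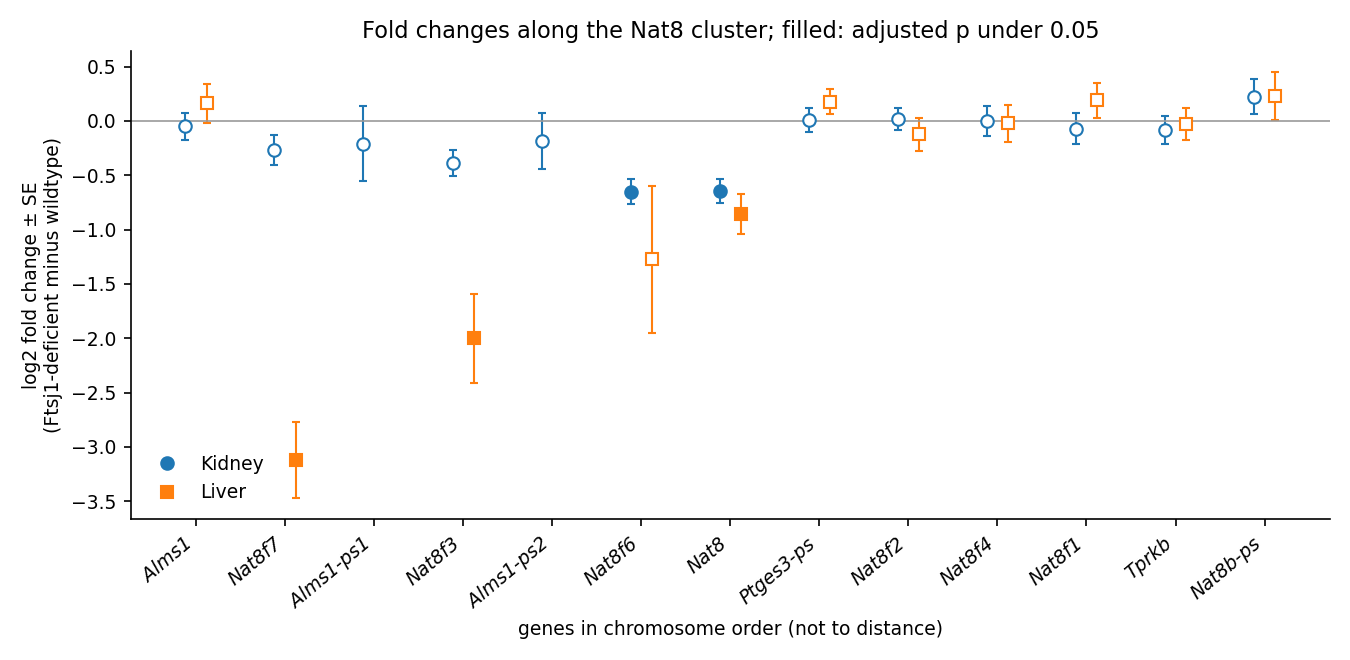
Log2 fold changes (± SE, from the authors' deposited tables) in poly-A libraries of kidney (blue circles) and liver (orange squares) for genes with an adjusted p, placed in chromosome order without regard to distance; filled symbols had an adjusted p under 0.05. The lower values sit from Nat8f7 to Nat8, while Alms1 before them and Nat8f2, Nat8f4, Nat8f1 and Tprkb after them lie near 0.

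The windows before the start sites are printed because the 4 members that fell in kidney or liver form 2 pairs with near-identical stretches there. These pairs are not those of the coding sequences. There Nat8f3 was 99.6% identical to Nat8f7 and 69.8% identical to Nat8. RefSeq's promoter table (build GRCm38.p6) holds 8 of the 9 members, and the 250 bases before the start are given 5′ to 3′ on the gene's strand, which is the minus strand for all. Nat8f6 (chr6:85809878-85810127) and Nat8f7 (chr6:85708562-85708811) were 97.5% identical over 242 aligned bases. The window of Nat8f3 (chr6:85765745-85765994) is another sequence, and its last 156 bases were 98.7% identical to the first 156 of the more upstream of 2 windows of Nat8 (chr6:85836858-85837107). The window of Nat8f2 (chr6:85869138-85869387), whose gene leads in liver and did not pass, is given for contrast. Capitals mark matches to TGGTTTATNATT and CAGCCAATNA, the second holding the CCAAT core.
Nat8f6: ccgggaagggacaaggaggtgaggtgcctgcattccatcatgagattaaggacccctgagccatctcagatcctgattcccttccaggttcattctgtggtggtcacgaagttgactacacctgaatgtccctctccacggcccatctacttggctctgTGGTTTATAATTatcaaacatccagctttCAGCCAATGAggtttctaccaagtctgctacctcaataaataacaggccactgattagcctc
Nat8f7: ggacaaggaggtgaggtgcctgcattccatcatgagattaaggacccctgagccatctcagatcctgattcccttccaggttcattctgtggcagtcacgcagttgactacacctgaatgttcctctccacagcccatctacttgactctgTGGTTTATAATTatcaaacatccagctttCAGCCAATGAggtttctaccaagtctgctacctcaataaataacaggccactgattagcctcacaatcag
Nat8f3: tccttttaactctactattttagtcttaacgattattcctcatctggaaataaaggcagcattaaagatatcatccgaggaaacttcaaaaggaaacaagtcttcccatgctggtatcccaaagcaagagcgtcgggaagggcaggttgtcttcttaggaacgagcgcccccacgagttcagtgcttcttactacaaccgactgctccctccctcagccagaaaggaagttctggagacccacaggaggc
Nat8: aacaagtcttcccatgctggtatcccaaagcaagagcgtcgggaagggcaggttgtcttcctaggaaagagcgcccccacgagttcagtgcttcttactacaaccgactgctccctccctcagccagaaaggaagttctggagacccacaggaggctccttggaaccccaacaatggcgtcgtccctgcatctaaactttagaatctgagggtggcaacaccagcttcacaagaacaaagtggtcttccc
Nat8f2: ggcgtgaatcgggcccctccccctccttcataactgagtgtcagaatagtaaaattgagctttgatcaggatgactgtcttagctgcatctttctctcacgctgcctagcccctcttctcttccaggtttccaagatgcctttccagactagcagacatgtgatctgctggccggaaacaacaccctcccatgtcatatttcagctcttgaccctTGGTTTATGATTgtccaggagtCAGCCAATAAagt

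The 2 motifs are the stretches nearest the start, among those of 10 or more bases, that the windows of Nat8f2, Nat8f5, Nat8f6 and Nat8f7 share with at most 1 differing position (N). They were taken from these windows, so their presence there is a description. TGGTTTATNATT begins 35, 77, 91 and 99 bases before the start in the 4 genes in that order, and CAGCCAATNA follows it in each, at 13, 55, 62 and 70. Searched on both strands, TGGTTTATNATT was found in 0.0274% and CAGCCAATNA in 1.68% of 32851 windows of the same length. Both on the gene's strand occurred in 4 windows of the whole table (0.0122%), which are those 4 members. The matches join Nat8f6, which fell in kidney, and Nat8f7, which fell in liver, with Nat8f2, which passed in neither. The windows of Nat8, Nat8f1, Nat8f3 and Nat8f4 hold neither match.

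Other genes were set beside 3 members by how their level is divided over the 5 organs. The measure is the summed absolute difference of the 5 shares, in percentage points, and up to 5 of the nearest genes are named for each. Nearest to Nat8f1 among 8007 candidates were Gm19696, Rida, Khk, Aass and Acot12, at 3.97 to 6.66 points. Khk encodes ketohexokinase, which starts fructose breakdown, and Aass the first enzymes of lysine breakdown. Nearest to Nat8f2 among 1040 candidates were Ces1g, Gsta3, Ugt2b34, Apob and Azgp1, at 1.00 to 3.00 points; Ces1g is a carboxylesterase, Gsta3 a glutathione S-transferase and Ugt2b34 a glucuronosyltransferase gene. Among the nearest to Nat8l of 4653 candidates were Crmp1, Zmat4, Atp6v1g2 and Lingo1, at 0.881 to 1.20 points; Atp6v1g2 encodes a subunit of the vacuolar proton pump. The shares rest on 1 mean per organ.

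Some genes that act before Nat8 in mercapturate formation rose in kidney, and no gene of their 2 lists fell there; over all genes tested in kidney, 0.339% rose. Of 8 glutathione synthesis genes tested there 1 rose and 0 fell: Gclc, the catalytic subunit of the rate-limiting glutamate-cysteine ligase (0.68 ± 0.14, adjusted p = 3.45e-04 in the authors' deposited table). Of 26 glutathione S-transferase genes tested in kidney, 3 of the alpha class rose and 0 fell: Gsta1 (0.69 ± 0.14, adjusted p = 2.75e-04), Gsta2 (0.48 ± 0.12, adjusted p = 0.00523) and Gsta5 (0.62 ± 0.11, adjusted p = 3.17e-06) in the authors' deposited table. The list medians were 0.080 and 0.034 beside 0.0046 over all genes tested. At an unadjusted p under 0.05 in the authors' DESeq2 result there were 1 and 6 genes. The glutathione S-transferase genes tested ran from -1.46 to 0.69. The alpha-class genes are close copies of each other, and reads may be divided among them.

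The next list holds enzymes that act on conjugates once they are made, on the route to acetylation or aside from it. Of 11 genes tested in kidney, 0 passed in the authors' DESeq2 result and 3 had an unadjusted p under 0.05. Ggt1, the γ-glutamyltransferase of the tubule brush border, had -0.16 ± 0.076 (adjusted p = 0.768), and Acy3, an aminoacylase that removes the acetyl group again, had -0.37 ± 0.11 (adjusted p = 0.0584), in the authors' deposited table. Acy3 stood at 1511 ppm in kidney, above the 517 ppm of the whole Nat8 cluster, without regard to length. In liver, where 0.887% of all genes tested rose, 1 of 11 rose, Kyat3, a cysteine conjugate β-lyase (0.41 ± 0.13, adjusted p = 0.0449 in the authors' deposited table). Of 25 glutathione S-transferase genes 1 fell in liver, Gstp3 (-1.04 ± 0.20, adjusted p = 7.56e-05 in the authors' deposited table), where 1.41% of all genes tested fell. Liver Ggt1, at 0.632 ppm, had 3.65 ± 1.43 (adjusted p = 0.202 in the authors' deposited table). Liver Gclc had 0.33 ± 0.19 (adjusted p = 0.533 in the authors' deposited table), and 0 of 8 glutathione synthesis genes passed there, with 0 at an unadjusted p under 0.05 in the authors' DESeq2 result.

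The N-acetylaspartate pathway around Nat8l had no gene passing in brain and 2 that fell in kidney. In brain 0 of 12 genes passed in the authors' DESeq2 result, and 0 had an unadjusted p under 0.05. In kidney, where 0.648% of all genes tested fell, 0 of 12 rose and 2 fell, Slc13a3 and Naaladl2. Slc13a3 is the sodium-dependent dicarboxylate transporter that takes up N-acetylaspartate among other substrates (-0.48 ± 0.079, adjusted p = 6.81e-07 in the authors' deposited table). Naaladl2 is a peptidase-like gene named for its similarity to N-acetylated dipeptidases (-0.73 ± 0.11, adjusted p = 1.52e-08 in the authors' deposited table). Slc13a3 stood at 481 ppm in kidney, where it is known to carry dicarboxylates in the proximal tubule. Neither of the other lists related to acetylation held a called gene. Of genes linked to acetylation in the endoplasmic reticulum and of other N-acetyltransferases, 0 of 8 and 0 of 23 passed in kidney. In liver 0 of 8 and 0 of 20 passed. In the same order 0, 1, 1 and 1 had an unadjusted p under 0.05 in the authors' DESeq2 results. The first of these lists holds Slc33a1, Bace1, Atg9a, Rpn1, Rpn2, Sec61b, P4hb and Hspa5, none of which encodes an acetyltransferase. In brain, heart and spleen no gene of these 6 lists passed in the authors' DESeq2 results; at an unadjusted p under 0.05 there were 2, 6 and 6.

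**Figure D4:**
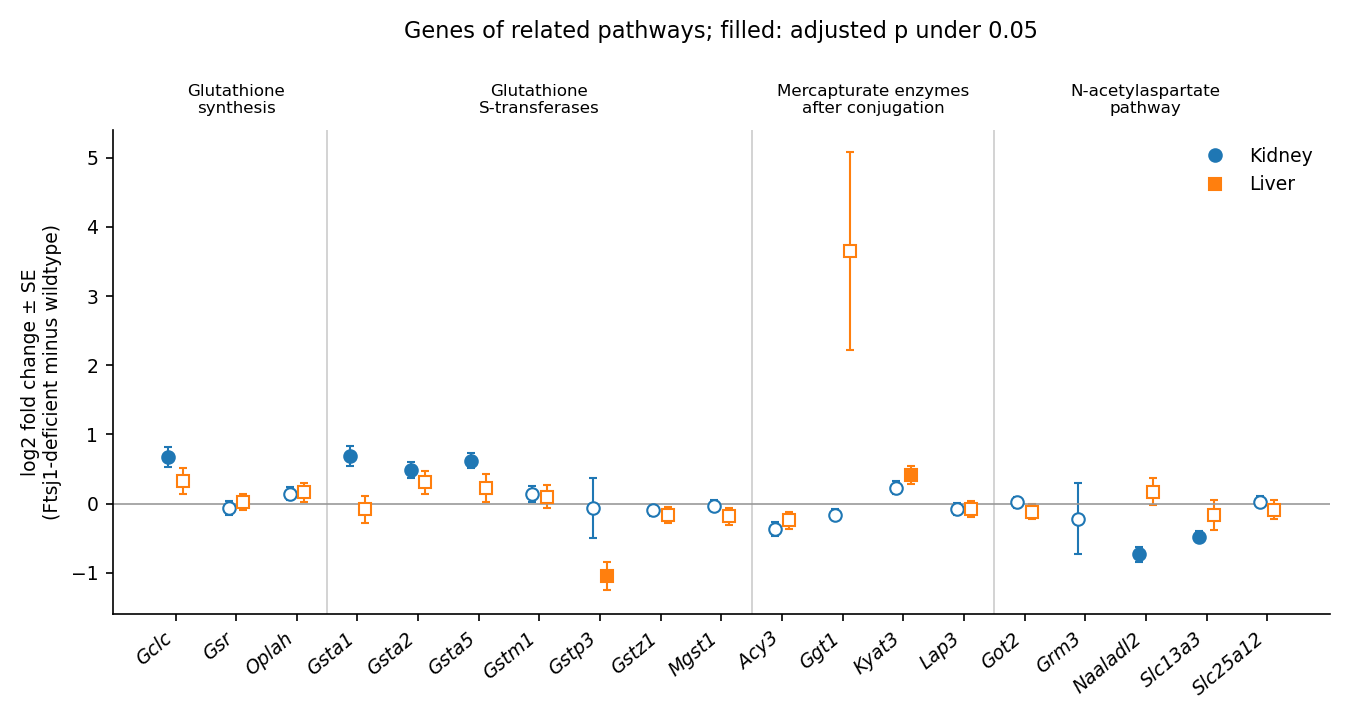
Log2 fold changes (± SE, from the authors' deposited tables) in kidney (blue circles) and liver (orange squares) of genes named from 4 pathway lists; filled symbols had an adjusted p under 0.05. Gclc, Gsta1, Gsta2 and Gsta5 in kidney and Kyat3 in liver sit above 0, and Slc13a3 and Naaladl2 in kidney and Gstp3 in liver below it, while the value of Ggt1 in liver has the widest bar.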

How the data were processed

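RNA was measured in 60 libraries of 5 organs of 6 mice. Per the labels' protocols, frozen tissue was milled, RNA was taken up in a phenol reagent, and stranded mRNA and total RNA kits were used. Per the submitters' processing notes, the genome build was GRCm39 and the tools were featureCounts, Subread 2.0.3 and DESeq2; no source used here gives the annotation, the strand setting or the treatment of reads that match several genes. Of 25 deposited tables, 10 were used: poly-A genes and lncRNAs of each organ. The mean signal of a gene, per the file headers, is DESeq2's average of normalised counts over the 6 libraries of an organ. The log2 fold change and its SE are the authors' own, signed Ftsj1-deficient minus wildtype by the sign of Ftsj1. The test score is the authors' Wald statistic, and the p-value and adjusted p-value are as deposited. Counts of genes at an unadjusted p under 0.05 cover all listed genes with a p, including those without an adjusted p.

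No count model was fitted, as the tables hold no value per library, and the depth per library is unknown. The labels name a separate mouse for each replicate. Levels were scaled to parts per 1000000 (ppm) of the organ's summed mean level and, where genes are compared, to the exon length in GENCODE M21. That annotation and RefSeq's tables belong to build GRCm38, so the gene order, lengths, 75-base stretches and promoter windows are those of that build. Implied genotype levels assume that the mean level is the average of both genotypes. Intervals of 95% are normal ones from the SE. Scripts ran in Python 3.11.15 with pandas 2.3.3, scipy 1.17.1 and Biopython 1.88 and were tested on simulated data.

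The members, gene lists and tests were chosen with earlier results of these data known. Every member is given in every organ where it is listed. Of each list, all called genes (at most 8) and the 3 with the highest level in kidney or liver could be named, and the text leaves some out. For the N-acetylaspartate list the 3 were taken by their level in brain. Alternatives were other adjustments and thresholds, a t distribution with 4 degrees of freedom, other centring of fold changes, and levels relative to 6 reference genes.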

Additional observations from a re-analysis of the deposited data

How the results depend on the processing

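The counts of 2 members falling in kidney and 3 in liver stayed within 1.5 times of themselves under Benjamini-Hochberg adjustment over every gene with a p, over genes at a level of at least 10 and over the 5 organs together, and at adjusted p thresholds of 0.01 and 0.1. At 0.1 Nat8f3 in kidney (0.0986) passed as well. When the deposited Wald statistic was read against a t distribution with 4 degrees of freedom, the counts went to 0 in kidney and 0 in liver; no gene of any organ passed under that reading, so it separates nothing. Centring the fold changes on the median of all genes or of tubule or hepatocyte markers moved none of the called members by more than its SE. The cluster stood 2.48 times higher in ppm in liver than in kidney, and 3.80 times higher relative to 6 reference genes, which moved the same ratio of single members by as much; the cause was not tested. Pathway counts were the same among genes at a level of at least 10. No paired analysis was possible because the tables hold no value per library, and for the same reason no library could be left out. Nat8f5 in all organs and Nat8 in heart had mean levels under the lowest that carries an adjusted p there, and the depth of the libraries is unknown.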
